A study of Mus musculus with 6 samples.

Results

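Tpx2, Nusap1, Aspm, Ckap2, Ckap2l, Cip2a, Prc1, Racgap1, Ect2 and Anln are 10 genes of the mitotic spindle and of cytokinesis, among 38924 genes listed in the count files of embryonic mouse nasal cartilage. They were chosen by name as spindle and cytokinesis genes, and partly selected on the genotype contrast itself, since several had been seen to be higher in the mutant. Their differences between the genotypes are therefore given as a description, with no test. RNA-seq was made from anterior nasal septum cartilage, captured by laser from frozen heads of C57BL/6 embryos at embryonic day 14.5. The 3 wild-type libraries carry the genotype label WT. The 3 Apert libraries carry Fgfr2+/S252W with EIIA-Cre, a heterozygous point mutation of an FGF receptor gene that models Apert syndrome, a human craniosynostosis. The EIIA promoter drives Cre in the early embryo, so the mutation is not limited to cartilage. The series describes 1 library for each mouse. The labels call the controls WT and nothing more, and gene counts cannot show the point mutation, so the genotypes were not checked from the files. Values of the 3 libraries of a group are given in the order of replicates 1, 2 and 3.

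Mitotic spindles are built from microtubules that are nucleated, bundled and anchored by other proteins, and some of these are made mainly as cells approach division. After the chromosomes part, antiparallel microtubules form the central spindle, which tells the cell cortex where to place the contractile ring. In cartilage, dividing chondrocytes and the perichondrium around them supply the cells for growth, and transcripts made mainly towards division are typical of dividing cells. In bulk RNA a larger share of dividing cells and more RNA for each dividing cell cannot be told apart.

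Many late cell cycle genes share a CCAAT box and a TTTGAA element, known as a cell cycle homology region, close to the start site, and both were looked for on either strand of the members' promoters. RefSeq promoters (GRCm38.p6, 250 bases before to 50 after the start site) were matched for 9 members, all except Tpx2. CCAAT was found in 7 of the 9 and TTTGAA in 7 of the 9, against 37.4% and 17.9% of all 32851 promoters in the table. Both stood in 6 of the 9, namely Aspm, Ckap2, Ckap2l, Prc1, Racgap1 and Ect2, against 7.52% of all promoters when the variant TTCGAA is counted with TTTGAA. Among promoters of genes tested in this tissue the last share was 5.72%. Anln held TTTGAA without CCAAT, Cip2a held CCAAT together with the E2F-like TTCCCGC (in 4.6% of all promoters), and none of these motifs stood in the window of Nusap1. TTCGAA was in none of the 9, against 1.56% of all promoters. No 2 matches overlapped in a member, and a match is a description of letters only. The 6 promoters with both motifs are shown from 130 bases before to 20 after the start site, because both motifs are a feature these members share that the counts did not choose. Capitals mark matches of the CCAAT box and of the TTTGAA element on either strand.
Aspm: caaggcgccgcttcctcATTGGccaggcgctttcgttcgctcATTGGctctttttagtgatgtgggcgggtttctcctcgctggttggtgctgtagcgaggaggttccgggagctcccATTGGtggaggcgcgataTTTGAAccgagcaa
Ckap2: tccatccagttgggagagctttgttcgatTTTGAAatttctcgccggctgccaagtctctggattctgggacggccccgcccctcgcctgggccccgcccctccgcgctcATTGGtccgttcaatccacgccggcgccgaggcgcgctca
Ckap2l: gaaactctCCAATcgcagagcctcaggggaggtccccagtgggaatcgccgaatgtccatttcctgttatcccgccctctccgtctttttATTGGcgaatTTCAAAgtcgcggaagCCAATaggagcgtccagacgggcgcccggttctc
Prc1: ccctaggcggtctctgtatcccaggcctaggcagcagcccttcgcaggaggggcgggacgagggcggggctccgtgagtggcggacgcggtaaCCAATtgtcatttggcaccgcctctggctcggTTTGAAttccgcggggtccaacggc
Racgap1: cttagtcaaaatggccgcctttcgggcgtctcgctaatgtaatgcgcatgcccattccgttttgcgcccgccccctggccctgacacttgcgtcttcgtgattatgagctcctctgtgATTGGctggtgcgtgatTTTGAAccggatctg
Ect2: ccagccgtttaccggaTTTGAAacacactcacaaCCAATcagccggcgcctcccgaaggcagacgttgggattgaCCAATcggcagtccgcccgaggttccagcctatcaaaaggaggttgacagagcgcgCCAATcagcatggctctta
The stretches lie at chr1:139454643-139454792 (plus strand), chr8:22185800-22185949 (minus strand), chr2:129297193-129297342 (minus strand), chr7:80294321-80294470 (plus strand), chr15:99651637-99651786 (minus strand) and chr3:27153859-27154008 (minus strand), and Prc1 and Ect2 have a second listed start site each, whose promoters also hold both motifs. In Aspm and Racgap1 the same arrangement is visible, with the CCAAT box on the other strand from -12 to -8 and the TTTGAA element beginning at base 7 and base 6 after the start site.

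Library totals ran from 6760510 to 10834744 counts, so that 1 count was worth at most 0.148 CPM (counts divided by the library total, adjusted by trimmed mean of M values, TMM, in all values below). The members had 94 to 1423 counts in single libraries, so none was near the detection limit. Mitochondrial genes took 28.8% to 30.2% of counts in WT and 34.3% to 40.4% in Apert libraries, and WT libraries had more genes with a count, 18823 ± 128 against 18376 ± 143 (SD, n = 3 each; two-sided exact permutation p = 0.1 for both, the smallest 3 against 3 allows). Cartilage markers were abundant in every library, their 19 genes summing to 38724 to 49844 CPM in WT against 39876 to 43155 CPM in Apert. Of the 18 measured, 13 had negative and 5 positive log2 fold changes (median -0.19), and 0 were called. In 4 every Apert library lay below every WT library and in 1 above, where 7.7% and 8.92% of all genes tested did. The 13 perichondrium and fibrous mesenchyme markers summed to 3495 to 4078 CPM in WT against 4623 to 5296 CPM in Apert without overlap. In 4 of the 13 every Apert library lay above every WT library, where 8.92% of all genes tested did. Of the 13, Col3a1 and Ogn rose (edgeR adjusted p = 0.0322 and 0.0363), where 0.398% of all genes tested were higher past 0.05. The other 11 did not pass. Log2 fold changes were positive in 10 and negative in 3 of the 13 (median 0.53), where 51.1% of all genes tested were positive. Epithelial markers (8 genes, at most 2.99 CPM in sum, Cdh1 and Krt14 at 0 counts) and endothelial markers (8 genes, at most 5.02 CPM) were near 0. Muscle markers reached 11.9 CPM over 10 genes, with Myog, Myod1, Myh8 and Ckm at 0, macrophage markers 14.4 CPM and neuron markers 13 CPM over 8 genes each. The 8 glia markers summed to 366 to 434 CPM in WT against 277 to 330 CPM in Apert, and 9 erythroid markers to 50.3 to 93.0 and 58.7 to 70.8 CPM. The part of mitochondrial share, cartilage, perichondrium or glia in the values below was not tested.

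All 10 members passed the low-count filter, and all 10 had a higher mean in Apert than in WT cartilage. In 9 of the 10 every Apert library lay above every WT library, as it did in 8.92% of all 13333 genes tested, and Tpx2 was the exception. The median log2 fold change of the members was 1.02 (quartiles 0.90 and 1.18, range 0.55 to 1.30), beside a median of 0.01 (quartiles -0.26 and 0.25) over all genes tested. In the fit across all genes, 7 members were past an adjusted p of 0.05 and higher in Apert (edgeR quasi-likelihood, Benjamini-Hochberg), where 0.398% of all genes tested were. Because this contrast helped to choose the members, nothing is read from that count. The 7 were Nusap1, Aspm, Ckap2, Ckap2l, Cip2a, Prc1 and Ect2. Without WT replicate 1, 2 or 3 the count was 2, 3 or 0, where 0.0944%, 0.16% and 0.0% of all genes were higher past the threshold. Without Apert replicate 1, 2 or 3 it was 8, 0 or 2, where 0.859%, 0.0142% and 0.0708% of all genes were. In both fits with no member called, without WT replicate 3 and without Apert replicate 2, edgeR gave 9 members with an unadjusted p below 0.05, as it did for 9.75% and 9.35% of all genes. Nothing is read from these counts either, since the same libraries helped to choose the members. With all libraries DESeq2 counted 9 members, where 2.04% of the 7438 genes it gave an adjusted p were higher past the threshold, and limma-voom counted 6, where 0.443% were.

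**Figure D1:**
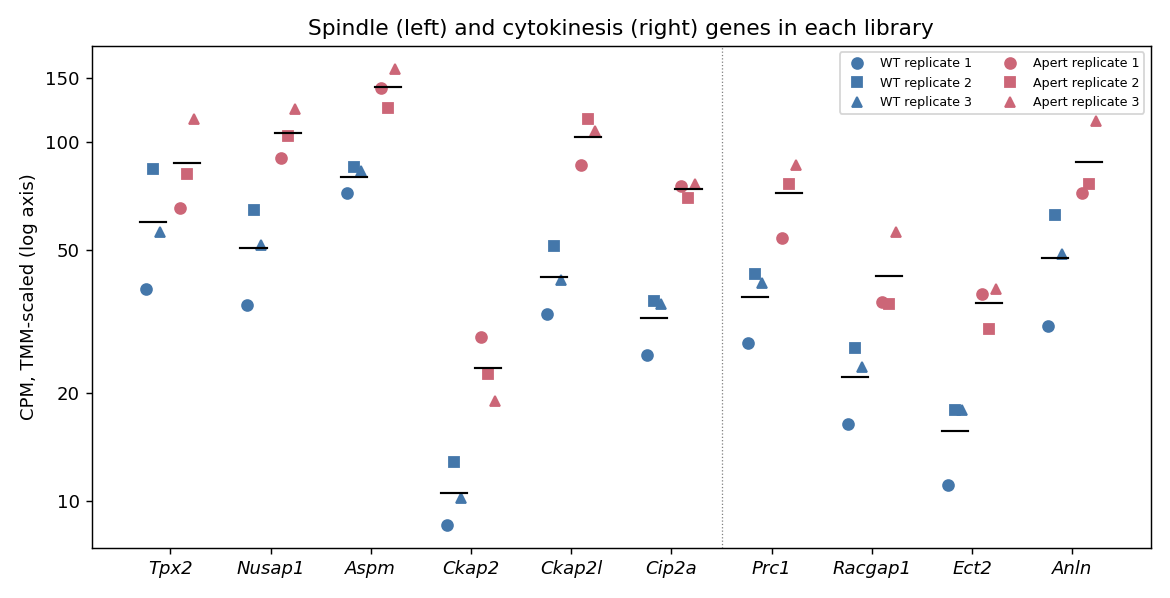
CPM of each member (log axis) in the 3 WT libraries (blue) and the 3 Apert libraries (red), with the shape giving the replicate and the black line the group mean. The 3 Apert points stand above the 3 WT points for every member except Tpx2, where WT replicate 2 at 83.9 CPM exceeds Apert replicates 1 and 2.

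Of the spindle assembly genes, Tpx2 activates the kinase Aurora A and starts microtubule growth around chromosomes. Tpx2 (chromosome 2, 152847964 to 152895321, mm10, plus strand) stood at 38.9, 83.9 and 56.0 CPM in WT against 65.3, 81.0 and 115 CPM in the Apert libraries. It was the 1 member whose groups overlapped and had the smallest log2 fold change, 0.55 (standard error 0.24). Leaving out Apert replicate 3 gave 0.28, leaving out WT replicate 1 gave 0.31, and leaving out WT replicate 2 gave 0.87. The kinase partner Aurka was low, at 8.69 ± 2.67 CPM in WT against 11 ± 0.92 CPM in Apert (SD, n = 3 each). Per kilobase of exon, Tpx2 was 3.08, 3.86 and 4.05 times Aurka in WT and 2.97, 4.35 and 5.58 times in Apert libraries, so the ratios of the groups overlap.

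Nusap1 bundles and stabilises spindle microtubules near chromosomes. Its level was 35.2, 64.6 and 51.5 CPM in WT against 90.2, 104 and 123 CPM in the Apert libraries, a log2 fold change of 1.07 (standard error 0.20). The lowest Apert library thus lay well above the highest WT library. Nusap1 (chromosome 2, 119618298 to 119651244, plus strand) shares 172 bases of exon, 4.24% of its exon length, with Oip5, and counting ignored strand, so a small part of its signal is uncertain.

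Aspm holds microtubule minus ends at the spindle poles and orients the spindle, and its loss causes microcephaly in humans. It was the most abundant member in CPM, with 71.8, 85.2 and 82.6 CPM in WT against 141, 124 and 159 CPM in the Apert libraries. Aspm (chromosome 1, 139454773 to 139494090, plus strand) varied least among WT libraries, with a coefficient of variation of 8.93%, and its log2 fold change was 0.82 (standard error 0.15). Both groups were tight, and they did not overlap.

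Ckap2 and Ckap2l are related proteins that bind microtubules and promote their assembly in mitosis. Ckap2 (chromosome 8, 22168152 to 22185819, minus strand) was the least abundant member in CPM, at 8.58, 12.8 and 10.2 CPM in WT against 28.7, 22.6 and 19.0 CPM in Apert, with a log2 fold change of 1.16 (standard error 0.25). Ckap2l (chromosome 2, 129268210 to 129297212, minus strand) stood at 33.1, 51.4 and 41.2 CPM in WT against 86.3, 115 and 107 CPM in Apert, with the largest log2 fold change of the members, 1.30 (standard error 0.18). Among the Apert libraries replicate 1 was the highest for Ckap2 and the lowest for Ckap2l. Per kilobase, Ckap2l was 3.20, 3.32 and 3.36 times Ckap2 in WT and 2.5, 4.24 and 4.69 times in the Apert libraries. The ratio was thus nearly constant in WT and scattered to both sides of that value in Apert. Ckap2l shares 181 bases of exon, 5.77% of its exon length, with Gm14024.

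Cip2a inhibits the phosphatase PP2A and, with Topbp1, tethers broken chromosomes during mitosis, so it is less a structural spindle protein than the others. It stood at 25.5, 36.0 and 35.3 CPM in WT against 75.2, 69.8 and 76.0 CPM in the Apert libraries, with a log2 fold change of 1.19 (standard error 0.18). The Apert values were the closest together of any member, with a coefficient of variation of 4.55%. Cip2a (chromosome 16, 48994185 to 49019709, plus strand) has the lowest GC content of the members, 37.8%.

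Prc1 cross-links antiparallel microtubules of the central spindle. It was measured at 27.5, 42.7 and 40.4 CPM in WT against 53.7, 76.3 and 86.2 CPM in the Apert libraries, a log2 fold change of 0.97 (standard error 0.21). Prc1 (chromosome 7, 80294450 to 80316259, plus strand) works with the kinesin Kif4, which was at 30.8 ± 9.97 CPM in WT against 56.5 ± 11.2 CPM in Apert (SD, n = 3 each; edgeR adjusted p = 0.108). Per kilobase, Prc1 stood at 0.91, 0.72 and 0.84 of Kif4 in WT and at 0.67, 1.10 and 0.84 in Apert, with overlapping ratios. Kif4, which shares exons with Pdzd11, passed with DESeq2 (adjusted p = 0.0237) and in edgeR with no low-count filter (adjusted p = 0.00417). It missed the threshold with limma-voom (adjusted p = 0.0924). In edgeR Kif4 missed it with library totals alone (adjusted p = 0.154), with RLE size factors (0.122) and after GC correction (0.214). Every edgeR fit with a single library left out missed it too.

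Racgap1 and the kinesin Kif23 form centralspindlin, the complex that collects at the spindle midzone. Racgap1 (chromosome 15, 99620496 to 99651656, minus strand) stood at 16.4, 26.6 and 23.6 CPM in WT against 35.8, 35.2 and 56.1 CPM in Apert, a log2 fold change of 0.93 (standard error 0.23). Apert replicate 3 was far above the other Apert libraries, and without it the log2 fold change was 0.67. Kif23 rose from 39.0 ± 8.88 to 79.3 ± 11.1 CPM (SD, n = 3 each; log2 fold change 1.02, edgeR adjusted p = 0.0248). The ratio of Racgap1 to Kif23 per kilobase was 0.28, 0.29 and 0.26 in WT and 0.25, 0.22 and 0.30 in Apert libraries, so both complex partners were found in overlapping proportions in the genotypes.

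Ect2 is the exchange factor that centralspindlin brings to the cortex, where it switches on RhoA. Ect2 (chromosome 3, 27097222 to 27153878, minus strand) stood at 11.1, 17.9 and 17.9 CPM in WT against 37.6, 30.1 and 38.9 CPM in the Apert libraries, a log2 fold change of 1.19 (standard error 0.23). Per kilobase, Ect2 was 0.92, 0.92 and 1.03 times Racgap1 in WT and 1.43, 1.16 and 0.94 times in Apert, again with overlap.

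Anln, or anillin, is the scaffold that links actin, myosin and septins in the contractile ring. It was measured at 30.6, 62.6 and 48.7 CPM in WT against 72.1, 76.3 and 114 CPM in the Apert libraries, a log2 fold change of 0.89 (standard error 0.23). Anln (chromosome 9, 22331214 to 22389206, minus strand) varied widely in WT, with the highest library at 2.04 times the lowest. Without Apert replicate 3 its log2 fold change was 0.64.

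Levels of different genes were compared as CPM per kilobase of exon. In WT cartilage Ckap2l (13.4 ± 2.92), Tpx2 (12.7 ± 4.85) and Nusap1 (12.4 ± 3.63) led, followed by Anln (8.72 ± 2.96), Aspm (6.95 ± 0.62), Cip2a (5.67 ± 1.04), Prc1 (4.48 ± 0.997), Ckap2 (4.05 ± 0.823), Racgap1 (3.13 ± 0.742) and Ect2 (3.0 ± 0.755; SD, n = 3 each). The WT ranges of each neighbouring pair in this order overlapped. Within every single WT library, however, Nusap1 stood above Anln, and Aspm, Cip2a, Prc1, Ckap2 and Racgap1 kept this order. The other neighbouring pairs changed order between WT libraries, namely Ckap2l and Tpx2, Tpx2 and Nusap1, Anln and Aspm, and Racgap1 and Ect2. Among all genes tested these WT levels lay between the 40.2 percentile (Ect2) and the 81.5 percentile (Ckap2l). In Apert cartilage Ckap2l (32.8 ± 4.79) and Nusap1 (26.1 ± 4.12) stood above Tpx2 (18.6 ± 5.45; SD, n = 3 each), and the Ckap2l libraries did not overlap those of Tpx2 there. Exon length here is the union over all transcripts, which is much longer than the longest transcript for some genes. With the longest GENCODE M21 transcript as the length, Prc1 moved up to 10.1 ± 2.25 CPM per kilobase in WT, next to Anln at 10.3 ± 3.48 (SD, n = 3 each). On that length the WT mean of Nusap1 (14.3 ± 4.18) was above those of Tpx2 (13.6 ± 5.20) and Ckap2l (13.4 ± 2.92). Cip2a (8.11 ± 1.48) was level with Aspm (8.09 ± 0.722), and Racgap1 (4.96 ± 1.17) was above Ckap2 (4.06 ± 0.826; SD, n = 3 each). The order given above thus rests on the union length.

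**Figure D2:**
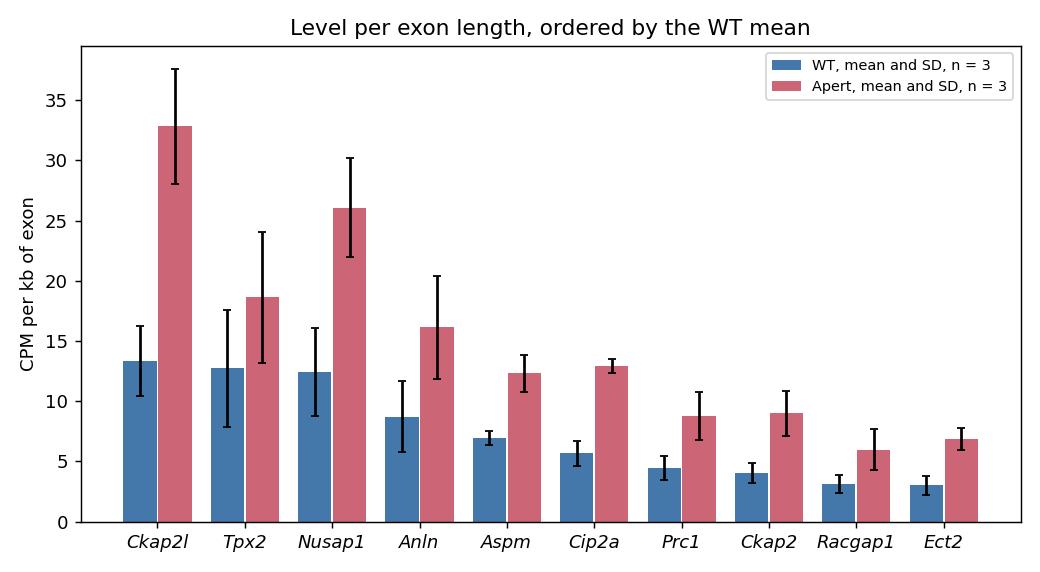
Mean CPM per kilobase of exon in WT (blue) and Apert (red), with the SD over 3 libraries, ordered by the WT mean. Ckap2l, Tpx2 and Nusap1 lead in WT, at 12.4 to 13.4, and Ckap2l reaches 32.8 in Apert.

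The WT libraries differed from each other in the same order for every member. Among WT libraries replicate 1 was the lowest and replicate 2 the highest for all 10 members, an order found in 18.6% of all genes tested. Among Apert libraries replicate 3 was the highest for 8 of the 10, against 32.1% of all genes, the exceptions being Ckap2 and Ckap2l. The order of Apert replicates 1 and 2 varied between members. Members measured in the same libraries are not independent observations, so these counts carry no test. Summed over the members, the level was 299, 484 and 407 CPM among WT libraries and 686, 734 and 896 CPM among Apert libraries. Averaged over the members, log2 CPM relative to the mean of the 6 libraries was -0.90, -0.20 and -0.42 in the WT libraries and 0.38, 0.44 and 0.70 in the Apert libraries. On this log2 scale WT replicates 1 and 2 were farther apart than any 2 Apert libraries. In summed CPM, Apert replicates 1 and 3 (686 and 896) were farther apart than WT replicates 1 and 2 (299 and 484).

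The 5 genes outside the members whose profile over the 6 libraries was nearest to this mean, by the root mean square difference in log2 CPM among 9431 genes with a mean of at least 5 CPM, were Kif14 (0.057), Mki67 (0.059), Kif23 (0.069), Hmmr (0.092) and Spag5 (0.11), which encodes the spindle protein astrin. For single members the same distance ran from 0.081 for Nusap1 to 0.29 for Tpx2. Mki67, the gene of the proliferation marker Ki-67, stood at 518, 816 and 644 CPM in WT against 1234, 1290 and 1605 CPM in the Apert libraries. Kif14, a kinesin of the midbody, stood at 18.1, 32.2 and 25.8 CPM in WT against 46.7, 44.2 and 56.4 CPM in Apert. Because these genes were picked for their profile over the same libraries, their likeness to the members is a description only.

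**Figure D3:**
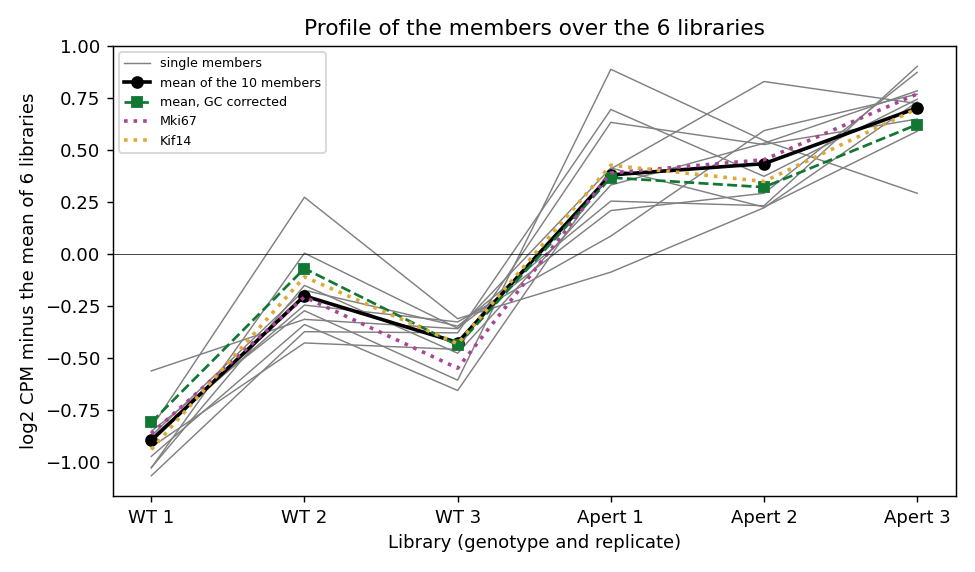
Log2 CPM minus the mean of the 6 libraries for each member (grey), their mean (black), the mean after correction for GC content (green), and Mki67 and Kif14 (dotted), with lines joining the values of a gene and no order implied among replicates. The mean is lowest in WT replicate 1, at -0.90, and highest in Apert replicate 3, at 0.70.

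Amplified libraries can differ in how they recover transcripts of low or high GC content, and the members lie on the low side. Their GC content ran from 37.8% (Cip2a) to 47.8% (Tpx2), all below the median of 48.9% over the 13192 tested genes with a value. Across all genes tested the median log2 fold change went from 0.23 in the decile with the lowest GC content to -0.30 in the decile with the highest. In the same lowest decile the libraries' median deviations were -0.10, -0.22 and -0.01 in the WT libraries and 0.11, 0.17 and 0.09 in the Apert libraries. After each library was corrected for this trend, the median log2 fold change of the members was 0.87 in place of 1.02, and single members lay between 0.51 (Tpx2) and 1.21 (Ckap2l). The lowest-GC members moved most, Cip2a from 1.19 to 0.94 and Ect2 from 1.19 to 0.97. After the correction 9 of the 10 still had every Apert library above every WT library, and all 10 had the WT order described above. Whether GC content bears on the members beyond this correction was not tested. Past the threshold, however, only Ckap2l was left of the 7, as 0.03% of all genes were higher past it after the correction (edgeR). Scaling by library totals without TMM factors moved the median of all genes from 0.01 to -0.14, and under it the members' median was 0.86, while Ckap2l and Cip2a were past the threshold, as were 0.128% of all genes in the same direction.

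**Figure D4:**
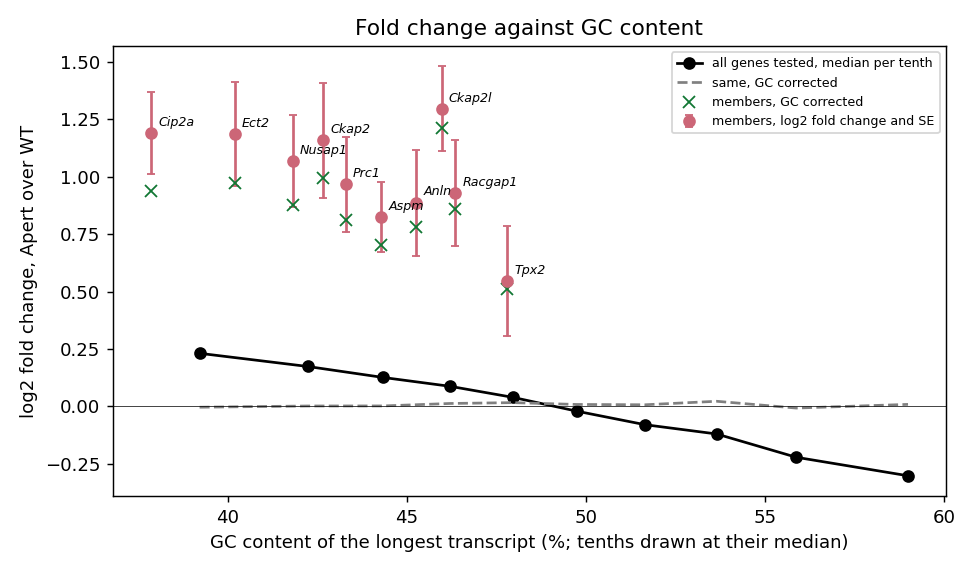
Log2 fold change (Apert over WT) against GC content of the longest transcript in percent, for the members with standard error (red) and after GC correction (green crosses), and as medians of all genes tested in deciles of GC content (black, and dashed after correction). The trend over all genes runs from 0.23 to -0.30, and the members lie above it, at 0.55 to 1.30.

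Other genes of the same machinery were taken from lists written from general knowledge. All 40 genes of the spindle assembly and microtubule nucleation list were measured, 1 rose and 0 fell, against 0.398% and 0.0525% of all genes tested. The one that rose was Hmmr, a spindle pole adaptor, from 40.8 ± 7.64 to 79.9 ± 7.07 CPM (SD, n = 3 each; log2 fold change 0.97, edgeR adjusted p = 0.0235). In 12 of the 40 the Apert libraries lay above all WT libraries and in 2 below them, where 8.92% and 7.7% of all genes tested did, 34 had positive log2 fold changes where 51.1% of all genes did, and the list's median was 0.17. Scaled by library totals, that median was 0.02, where the median of all genes tested was -0.14 in place of 0.01. After GC correction the list's median was 0.15. The 3 other genes of the list with the highest level per kilobase, averaged over all 6 libraries, were not called. Mapre1, which tracks growing microtubule ends, stood at 181 ± 17.2 and 187 ± 9.78 CPM, and Stmn1, which destabilises microtubules and overlaps Gm23634, at 37.1 ± 5.93 and 47.6 ± 9.70 CPM (SD, n = 3 each; edgeR adjusted p = 0.937 and 0.513). Map4, a general microtubule-associated protein not limited to mitosis, stood at 270.1 ± 37.2 and 350.3 ± 32.1 CPM (SD, n = 3 each; edgeR adjusted p = 0.315). Of 35 measured genes of the cleavage furrow and abscission list, 1 rose and 0 fell, with a median of 0.16. That median was 0.0063 when scaled by library totals, beside -0.14 over all genes tested, and 0.10 after GC correction. Log2 fold changes were positive in 26 of the 35. The Apert libraries lay above all WT libraries in 6 and below them in 2. Diaph3, a formin that nucleates actin filaments, rose from 18.8 ± 5.99 to 40.6 ± 6.30 CPM (SD, n = 3 each; log2 fold change 1.11, edgeR adjusted p = 0.0459). Rhoa, the GTPase that Ect2 activates, stood at 155 ± 14.4 and 165 ± 21.5 CPM (SD, n = 3 each; log2 fold change 0.09, edgeR adjusted p = 0.860), a value that turned to -0.06 with library totals alone or after GC correction. Its effector kinases Rock1 and Rock2 had log2 fold changes of 0.63 and 0.54 (edgeR adjusted p = 0.0865 and 0.0884). Both passed with DESeq2 (adjusted p = 0.0108 and 0.00691) and in edgeR with no low-count filter (0.0177 and 0.0455), and missed the threshold after GC correction (0.412 and 0.488). Septin7 had a log2 fold change of 0.34 (edgeR adjusted p = 0.362). Actb, cytoplasmic actin, was at 454 ± 46.0 and 420 ± 95.0 CPM (SD, n = 3 each; edgeR adjusted p = 0.836).

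Of the 26 direct partners of the members, all measured, 2 rose and none fell, against 0.398% and 0.0525% of all genes tested. Those that rose were Kif23, given above, and Kif11, the kinesin that pushes spindle poles apart, from 80.2 ± 9.89 to 147 ± 4.52 CPM (SD, n = 3 each; log2 fold change 0.87, edgeR adjusted p = 0.0122). The median of the 26 was 0.38. It was 0.22 when scaled by library totals, beside -0.14 over all genes tested, and 0.46 after GC correction. Log2 fold changes were positive in 25 of the 26, where 51.1% of all genes tested were positive. In 10 every Apert library lay above every WT library and in 0 below, where 8.92% and 7.7% of all genes did. Rac1, whose activity Racgap1 limits, was at 535 ± 19.5 and 596 ± 44.5 CPM (SD, n = 3 each; edgeR adjusted p = 0.694), and Cdc42, a related GTPase, at 155 ± 6.43 and 160 ± 31.3 CPM (SD, n = 3 each; edgeR adjusted p = 0.937). When single libraries were left out, Kif11 and Hmmr passed without WT replicate 2 or Apert replicate 1 and missed the threshold in the other 4 fits, and Kif23 and Diaph3 passed without Apert replicate 1 and missed it in the other 5. Over these fits the log2 fold change ran from 0.80 to 0.97 for Kif11, 0.83 to 1.09 for Hmmr, 0.84 to 1.12 for Kif23 and 0.87 to 1.33 for Diaph3. Scaled by library totals, Hmmr, Kif23 and Diaph3 missed the threshold (edgeR adjusted p = 0.0525, 0.0525 and 0.0777), and Diaph3 also missed it with RLE size factors (0.0534) or with mitochondrial genes removed (0.0507). After GC correction none of the 4 passed, with log2 fold changes of 0.69 for Kif11, 0.78 for Hmmr, 0.95 for Kif23 and 0.94 for Diaph3.

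Tubulins, of which the spindle itself is made but which non-dividing cells also contain, were called by none of edgeR, DESeq2 and limma-voom. Of 12 tubulin genes 8 were measured, 0 had an unadjusted p below 0.05 and the median was 0.05. Scaled by library totals the median was -0.10, beside -0.14 over all genes tested, and after GC correction it was 0.20. Tuba1a stood at 38.3 ± 11.5 and 37.3 ± 4.29 CPM, Tuba1b at 201 ± 44.9 and 206 ± 43.5 CPM, and Tubb5 at 205 ± 29.0 and 195 ± 38 CPM (SD, n = 3 each), with log2 fold changes of -0.04, 0.03 and -0.08 that each changed sign under other settings. The transcription factors and cofactors that act on late cell cycle promoters, 19 genes and all measured, were also called by none of the 3 tools. In edgeR 2 of the 19 had an unadjusted p below 0.05, where 11.4% of all genes tested did. Log2 fold changes were positive in 17 of the 19, where 51.1% of all genes tested were positive. In 3 every Apert library lay above every WT library and in 0 below, where 8.92% and 7.7% of all genes did. The median was 0.24. It was 0.07 when scaled by library totals, beside -0.14 over all genes tested, and 0.20 after GC correction. Foxm1, which drives many late cell cycle genes and overlaps Tex52, stood at 51.8 ± 20.6 and 63.0 ± 4.45 CPM, and Tfdp1, the partner of E2F factors, at 59.4 ± 4.34 and 70.8 ± 0.665 CPM (SD, n = 3 each; edgeR adjusted p = 0.684 and 0.560). Nfya, a subunit of the factor that binds CCAAT boxes, stood at 78.2 ± 10.1 and 87.7 ± 12.2 CPM (SD, n = 3 each; edgeR adjusted p = 0.744).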

How the data were processed

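The authors deposited whole-number fragment counts per Ensembl gene, made with featureCounts 1.4.4 over exons without regard to strand on Ensembl release 75 models of GRCm38, per the file headers. The tools cutadapt and STAR 2.5.2b and the build mm10 are listed in the submitters' processing notes. Per the labels' protocols, 15 ng of RNA was amplified as cDNA, which can favour some GC contents, and read as pairs of 100 bp. No molecular identifiers are described. The SDs, and the standard errors of the edgeR fit, rest on variation between the 3 libraries of a group and not on counting error alone. Symbols came from GENCODE M21 (37607 of 38924 genes). The 1317 genes without a symbol stayed in the totals (0.168% to 0.205% of counts).

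Counts were filtered with filterByExpr (13333 genes kept), scaled by TMM and fitted by genotype with edgeR 4.0.16 in R 4.3.3 (glmQLFit, glmQLFTest, Benjamini-Hochberg at 0.05), after the code was tested on simulated data. Standard errors are the log2 fold change divided by the square root of F. log2 CPM used a prior count of 2. Alternatives were other scalings and filters, DESeq2 1.42.0, limma 3.58.1 (voom), removal of mitochondrial genes, the replicate number as a block, left-out libraries, and a smooth GC correction per library (mgcv 1.9.3). Lists held 220 genes, of which Chmp1b was not matched. The members and lists were chosen with earlier results of these data known. Named genes are the members, called genes of each list, the 3 others of each pathway list with the highest CPM per kilobase averaged over the 6 libraries, and the 5 nearest profiles. Aurka, Kif4, Rock1 and Rock2 were named after their values were seen.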

Additional observations from a re-analysis of the deposited data

How the results depend on the processing

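The median log2 fold change of the members kept its direction and moved by less than the spread between replicates in all alternatives, from 0.83 without WT replicate 1 to 1.21 without WT replicate 2. Counts past the threshold moved more. Of 13333 genes tested 60 were called, against 207 of 7438 with DESeq2, 247 of 23141 with no low-count filter, 172 of 13333 with the replicate block, 5 after GC content correction and 0 to 229 when single libraries were left out (0 without WT replicate 3, where edgeR gave 1376 genes with an unadjusted p below 0.05). Calls were 53 higher and 7 lower, but 17 higher and 24 lower with library totals alone. Of the members 7 were called, against 2 with library totals alone, 1 after GC content correction and 0 to 8 when single libraries were left out. With the replicate block 9 members were called, where 0.96% of all genes were higher past the threshold, and 5 with the block and GC content correction together, where 0.503% were. Rock1, Rock2 and Kif4 passed with the replicate block (edgeR adjusted p = 0.0261, 0.0370 and 0.0294). Deviations of same-numbered libraries correlated at 0.19, 0.02 and 0.09 over 13333 genes, and WT replicate 2 correlated better with Apert replicate 3 (0.042). These values do not show that the numbers pair the libraries, and they do not settle whether they do.

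Some genes near 0 changed sign. With library totals alone the log2 fold change was -0.061 for Rhoa, -0.11 for Mapre1, -0.11 for Cdc42 and -0.12 for Tuba1b. The median of all genes tested moved in the same direction under that scaling, from 0.01 to -0.14. After GC content correction it was -0.061 for Rhoa, -0.11 for Mapre1, -0.11 for Cdc42, 0.11 for Tuba1a and 0.026 for Tubb5. With that correction and the replicate block together the values were -0.063 for Rhoa, -0.11 for Mapre1, -0.13 for Cdc42, 0.13 for Tuba1a and 0.0097 for Tubb5. When single libraries were left out the values ran from -0.049 to 0.17 for Rhoa, -0.013 to 0.12 for Mapre1, -0.15 to 0.15 for Cdc42, -0.18 to 0.23 for Tuba1a, -0.10 to 0.23 for Tuba1b and -0.26 to 0.049 for Tubb5. The cause of these changes was not tested. The lowest count of a member in a library was 94, and 3 libraries a group limit the precision of every fold change.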
